A study of Mus musculus with 4 samples.

Results

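Classical genes of mural cells, 10 in number, were read in endothelial cells sorted from mouse tumours. They are the pericyte and smooth muscle genes Pdgfrb, Rgs5, Cspg4, Acta2, Tagln, Myh11, Kcnj8, Abcc9, Notch3 and Des, taken by name from the 55367 gene names of the count table. All 10 were found, and all 10 passed the filter on low counts with 16945 genes in all. KPC cells, a mouse pancreatic cancer line, had been grown under the skin of C57BL/6 mice. Tumour-bearing mice received by the intraperitoneal route either control Rat IgG (the control IgG group, libraries C1 and C2, replicates 1 and 2) or anti-CD93 antibody (the anti-CD93 group, libraries T1 and T2, replicates 1 and 2), 48 hours before the cells were taken. In both groups the tumours were digested with Liberase and the sort kept CD31+ CD45- cells, that is, cells with the endothelial surface protein CD31 and without the leukocyte protein CD45. Whether a group's libraries were made from different mice is not stated in the labels, and p-values here therefore speak to the spread among these 4 libraries alone.

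Mural cells are the contractile and supporting cells on the outer face of blood vessels: pericytes on capillaries and smooth muscle cells on larger vessels. Endothelial cells recruit them by secreting platelet-derived growth factor B, which binds the receptor PDGFRB on the mural cell, and they hold them through Notch ligands that act on NOTCH3. Mature mural cells make smooth muscle actin and myosin, while pericytes are often recognised by RGS5, NG2 (the product of Cspg4) and a potassium channel built from the products of Kcnj8 and Abcc9. A sort for CD31 should leave most mural cells behind, so the comparison asks how much mural RNA was in the sorted cells and whether it differed after the antibody against the endothelial receptor CD93. In bulk libraries of this kind, fewer mural cells and less RNA per mural cell cannot be told apart, and neither can be told from expression in the endothelial cells themselves.

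One control library stood apart from the other 3 libraries. The assigned reads numbered 9364294 to 17813993 per library. Across the tested genes, log2 levels correlated at 0.977 to 0.983 between libraries without C2 and at 0.945 to 0.947 where it took part. This is a description, since genes are not independent replicates. Its olfactory and vomeronasal receptor genes summed to 359.6 per 1000000 assigned reads, against 52 to 56.6 in the rest. Values without it are given below for the members and the lists of other genes.

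The sorted cells carried strong endothelial RNA and a smaller amount of mural RNA. Levels below are CPM, that is, reads per 1000000 reads of the tested genes, scaled between libraries by TMM. Pecam1, which encodes CD31, was at 1685 CPM in C1, 1872 in C2, 1661 in T1 and 1663 in T2. Cdh5, which encodes VE-cadherin, was at 2511 CPM in C1, 3301 in C2, 2561 in T1 and 2465 in T2. For comparisons between genes the level was divided by exon length, giving CPM per kilobase. On that scale the 10 mural genes summed to 188.6 in C1, 175.1 in C2, 192.9 in T1 and 158.4 in T2. The sum was equal to 10.3% and 8.25% of the sum of 12 endothelial markers in the control libraries, and to 10.9% and 8.89% in the anti-CD93 libraries. The ranges of the groups therefore overlapped.

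Counting limited one member, Tagln, far more than the rest. The recorded command counted reads without strand and without an option for reads that overlap several genes, and such reads are left out by the counter. Tagln (chromosome 9, 45929619 to 45936058, minus strand, GRCm38) shares 1241 of its 1988 exonic bases with Gm48529 and 108 with the 3′ end of Pcsk7, both on the plus strand. That left 639 bases in which a read could be assigned to Tagln, with 67.9% of its exons shared. Among all 16945 tested genes 1.25% share over 50% of their exonic bases. Gm48529 itself was assigned 21 reads in C1, 5 in C2, 32 in T1 and 37 in T2. Abcc9 shares 1.89% of its exonic bases with 5330439B14Rik, Notch3 6.03% with Gm17276 and Des 5.86% with Gm15179. The other 6 members share none.

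The members differed widely in level, and 3 of them held most of the reads. Abcc9, Rgs5 and Kcnj8 together took 78.2% and 70.1% of all reads of the 10 genes in C1 and C2, and 77.2% and 76.5% in T1 and T2. Ordered by CPM per kilobase of unshared exon, averaged over the 4 libraries, Abcc9 came first at 56.9, followed by Rgs5 at 35.6, Kcnj8 at 35.3 and Acta2 at 23.8. Pdgfrb followed at 12.4, Notch3 at 5.79, Myh11 at 4.38, Des at 4.23, Tagln at 2.02 and Cspg4 at 1.47. Of the 9 pairs of neighbours in this order, 3 had ranges over the libraries that did not overlap: Acta2 above Pdgfrb, Pdgfrb above Notch3, and Notch3 above Myh11. Rgs5 and Kcnj8 could not be ordered, with Rgs5 higher in 2 of the 4 libraries. Per kilobase of all exons, Tagln came last at 0.648, below Cspg4.

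**Figure D1:**
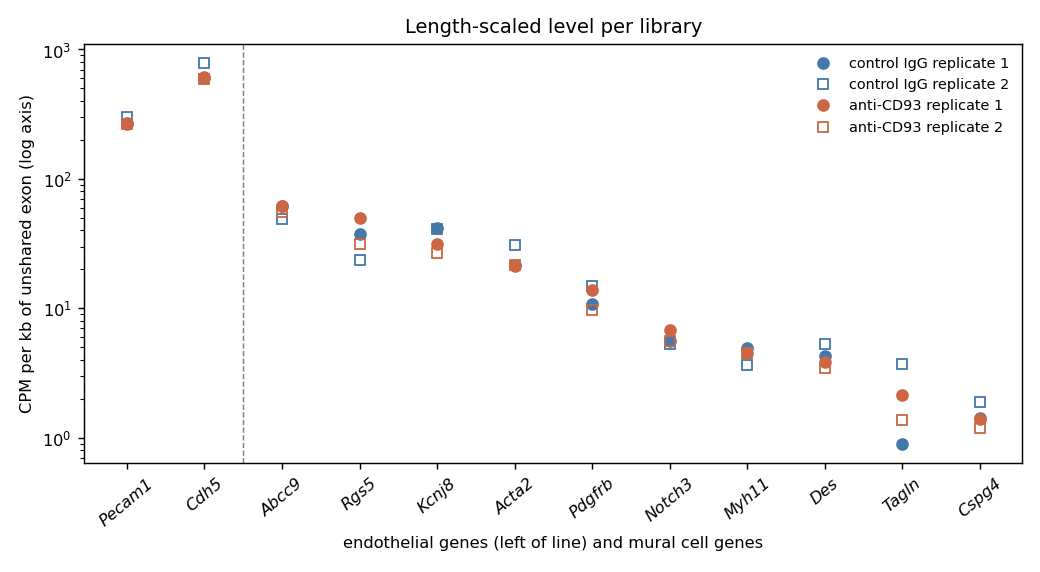
Level of Pecam1 and Cdh5 (left of the dashed line) and of the 10 mural genes in each library, as CPM per kilobase of exon not shared with another gene, on a log axis. Circles and open squares are replicates 1 and 2, blue is control IgG and orange is anti-CD93. Abcc9 led the mural genes at a mean of 56.9, and Tagln ranged most widely between libraries.

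No member passed the test between the groups. In edgeR's quasi-likelihood fit over all 16945 genes, 0 of the 10 members had a Benjamini-Hochberg adjusted p under 0.05, as had 0% of all tested genes, and their adjusted p values ran from 0.812 to 0.954. At an unadjusted p under 0.05 there was 1 member, Kcnj8, against 4.49% of all genes (761 genes). DESeq2 called 5 genes of the whole table and limma-voom 0, none of them a member. With C1 left out 2 members, Acta2 and Kcnj8, were called beside 26.8% of all genes. With C2, T1 or T2 left out 0 members were called, beside 0.0767%, 0% and 0.0059% of all genes. In 5 of the 10 members the groups did not overlap, T1 and T2 being below both control libraries in 4 and above both in 1. Of all tested genes 39.8% lay apart in this way, 19.7% below and 20.1% above. The median log2 fold change, anti-CD93 against control IgG, was -0.21 over the members and -0.0092 over all genes, with 4 members above 0 and 6 below. Without C2 the median over the members was -0.056. The 12 endothelial markers lay to the same side, with a median of -0.15, 10 of 12 below 0, 6 with both anti-CD93 libraries lower and 0 called (median -0.040 and 8 below 0 without C2). Of these, Cldn5, which encodes the tight junction protein claudin-5, had the smallest p: it was at 155.6 CPM in C1, 157.7 in C2, 96.8 in T1 and 113.6 in T2 (log2 fold change -0.57, SE 0.18, unadjusted p = 0.0114 and adjusted p = 0.812 by edgeR). For 7 of the 10 members the ratio between the 2 control libraries was larger than the ratio between the group means. This count was not made over all genes, and C2 stood apart across the tested genes, so it is not read as a trait of the members.

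**Figure D2:**
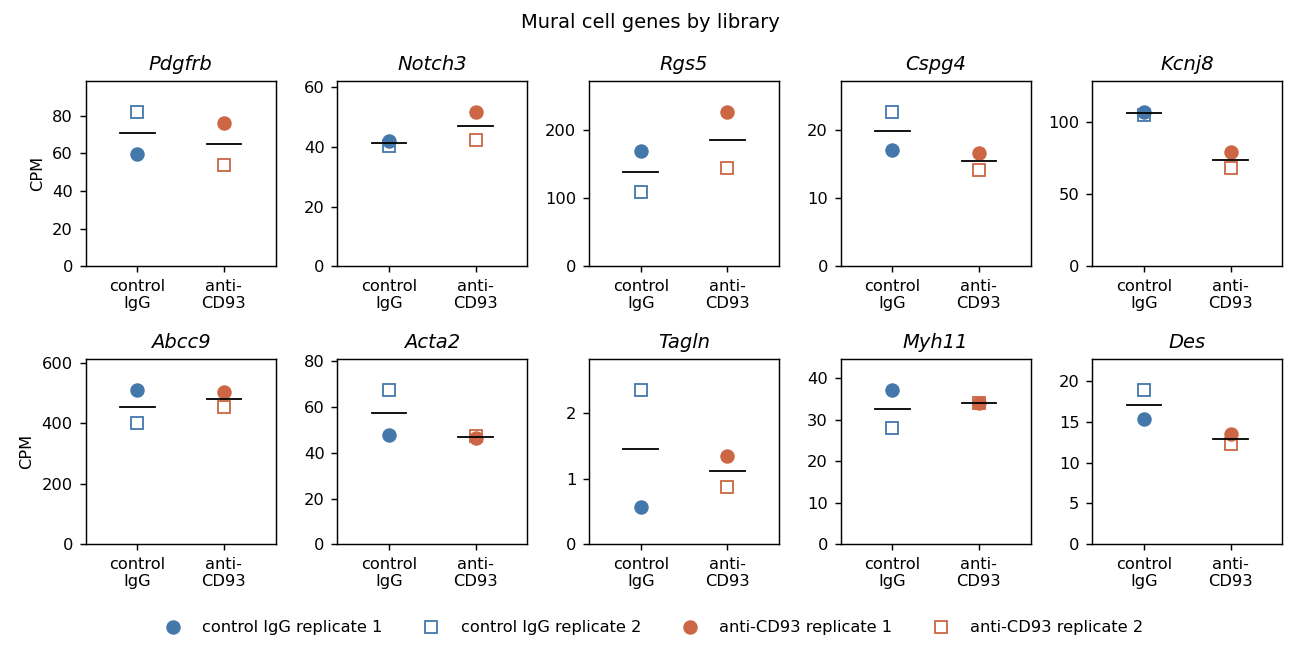
CPM of each mural gene in each library, with a black line at the mean of each group. Circles and open squares are replicates 1 and 2, and each panel has its own axis starting at 0. The groups lie apart by a clear margin in Kcnj8, where the control libraries were at 107.0 and 104.8 and the anti-CD93 libraries at 79.5 and 68.2 CPM.

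The receptors through which endothelial cells recruit and hold mural cells did not pass the test, and their differences were within the spread of single libraries. Pdgfrb (chromosome 18, 61045150 to 61085061), the receptor for platelet-derived growth factor B, was at 59.5 CPM in C1, 82.0 in C2, 76.0 in T1 and 53.5 in T2. The highest and the lowest library were thus in different groups, and the groups overlapped. Its log2 fold change was -0.13 (SE 0.24, 95% interval -0.69 to 0.44, adjusted p = 0.912 by edgeR), and it was 0.12 without C2 and 0.10 without T2. Notch3 (chromosome 17, 32120820 to 32166852), a Notch receptor largely restricted to mural cells among vessel cells, was at 42.1 CPM in C1, 40.3 in C2, 51.7 in T1 and 42.1 in T2. Both anti-CD93 libraries were above both control libraries, but T2 and C1 differed by less than 1%: 42.14 and 42.09 CPM. Notch3 had a log2 fold change of 0.19 (SE 0.20, 95% interval -0.27 to 0.65, adjusted p = 0.843 by edgeR), which was 0.16 without C2 and 0.041 without T1.

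The pericyte genes Rgs5 and Cspg4 had values on opposite sides of 0. Rgs5 (chromosome 1, 169655501 to 169695813), a regulator of G protein signalling used as a pericyte marker, was at 169 CPM in C1, 108 in C2, 226 in T1 and 143 in T2. C2 was lowest and T1 highest, with C1 and T2 in between, so the groups overlapped. The log2 fold change of 0.41 (SE 0.28, 95% interval -0.24 to 1.07, adjusted p = 0.812 by edgeR) was 0.13 without C2, 0.78 without C1, 0.053 without T1 and 0.71 without T2. Cspg4 (chromosome 9, 56865033 to 56899870), which encodes the proteoglycan NG2, was at 17.0 CPM in C1, 22.6 in C2, 16.6 in T1 and 14.1 in T2. Both anti-CD93 libraries were lower, with T1 close to C1. Cspg4 had a log2 fold change of -0.36 (SE 0.25, 95% interval -0.94 to 0.21, adjusted p = 0.812 by edgeR) and -0.15 without C2.

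The 2 genes of the mural potassium channel gave unlike values. This ATP-sensitive channel is built from a pore protein, encoded by Kcnj8, and a sulfonylurea receptor, encoded by Abcc9, and its opening relaxes the vessel wall. The genes are neighbours on the minus strand of chromosome 6, Kcnj8 at 142564837 to 142571614 and Abcc9 at 142587862 to 142702315, with 16247 bases between them. Kcnj8 was at 107.0 CPM in C1, 104.8 in C2, 79.5 in T1 and 68.2 in T2. Both anti-CD93 libraries were lower, and the gap between the groups exceeded the spread within each. The log2 fold change of Kcnj8 was -0.52 (SE 0.18, 95% interval -0.93 to -0.11, unadjusted p = 0.0194 and adjusted p = 0.812 by edgeR), where the interval is not adjusted for the number of genes.

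Kcnj8 stayed below 0 when single libraries were left out, which its groups, lying apart, all but fixed in advance. Its log2 fold change was -0.53 without C2 (adjusted p = 0.213 by edgeR) and -0.50 without C1 (adjusted p = 0.0125 by edgeR). In the second of these fits C2 was the sole control, the spread came from T1 and T2, and 4549 genes were called, 26.8% of those tested. Without T1 and T2 in turn the value was -0.63 and -0.41. Abcc9, in contrast, was at 510 CPM in C1, 399.8 in C2, 505 in T1 and 453 in T2, so that both anti-CD93 libraries lay between the control libraries. Its log2 fold change was 0.075 (SE 0.19, 95% interval -0.36 to 0.51, adjusted p = 0.934 by edgeR), and -0.091 without C2. The ratio of Kcnj8 to Abcc9, both per kilobase, was 0.689 in C1, 0.861 in C2, 0.517 in T1 and 0.494 in T2. This ratio was chosen after the values were seen and was not tested.

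The upstream sequences of the channel genes are shown because these genes are neighbours and their values were unlike. RefSeq entries of build GRCm38.p6 were found for 7 of the 10 members. A pair of motifs was searched on both strands in the 250 bases before each start. One is the CArG box by which serum response factor binds smooth muscle genes, with at most 1 base off in its A/T core, and the other is TGGGAA, the core bound by the Notch effector RBPJ. Of 32851 promoters, 8.59% held the first and 21.6% the second. Capitals mark the matches, and bases that the count table places in an exon are left out for Abcc9. For Acta2, whose 2 CArG matches are shown for comparison with 10 bases on each side, the table's gene model starts further upstream.
Kcnj8, chr6:142571615-142571864, minus strand: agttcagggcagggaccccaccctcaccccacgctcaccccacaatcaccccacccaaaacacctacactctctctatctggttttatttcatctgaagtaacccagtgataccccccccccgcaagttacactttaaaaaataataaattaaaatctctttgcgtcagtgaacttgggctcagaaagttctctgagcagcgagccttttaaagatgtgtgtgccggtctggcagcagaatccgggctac
Abcc9, chr6:142702316-142702524, minus strand: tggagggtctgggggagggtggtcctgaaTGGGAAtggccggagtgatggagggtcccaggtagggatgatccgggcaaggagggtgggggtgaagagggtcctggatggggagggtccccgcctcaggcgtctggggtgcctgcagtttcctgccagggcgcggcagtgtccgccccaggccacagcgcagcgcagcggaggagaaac
Acta2, chr19:34255438-34255467, minus strand: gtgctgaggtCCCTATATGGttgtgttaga
Acta2, chr19:34255388-34255417, minus strand: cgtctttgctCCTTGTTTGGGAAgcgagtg

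The channel genes do not share either motif in these windows. Kcnj8 held neither motif, and G and C made up 49.2% of its bases. The Abcc9 stretch held 1 TGGGAA match and was 68.4% G and C. In Acta2 the second CArG match overlaps a TGGGAA match, and the capitals there cover both. A match describes letters only and was not tied to the values.

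The contractile genes were present at very different levels. Acta2 (chromosome 19, 34241090 to 34255590), which encodes smooth muscle actin, was at 47.6 CPM in C1, 67.4 in C2, 46.4 in T1 and 47.5 in T2. C2 was high and the other 3 libraries nearly equal. Its log2 fold change was -0.29 (SE 0.22, 95% interval -0.80 to 0.22, adjusted p = 0.812 by edgeR). It was -0.022 without C2 (adjusted p = 0.976 by edgeR) and -0.52 without C1 (adjusted p = 0.0106 by edgeR), where the library that stands apart alone represents the controls. Acta2 is part of the actin family, whose members share long near-identical stretches, so its count is uncertain. The enteric smooth muscle actin Actg2 was at 4.16 CPM in C1, 3.64 in C2, 4.91 in T1 and 5.30 in T2.

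Myh11 (chromosome 16, 14194535 to 14291372), the smooth muscle myosin heavy chain and a marker of mature smooth muscle, was at 37.2 CPM in C1, 27.9 in C2, 34.1 in T1 and 34.0 in T2. The anti-CD93 libraries were almost equal and lay between the control libraries. The log2 fold change of Myh11 was 0.061 (SE 0.22, 95% interval -0.44 to 0.56, adjusted p = 0.954 by edgeR) and turned to -0.13 without C2 (0.28 without C1). Des (chromosome 1, 75360329 to 75368579), which encodes the muscle intermediate filament desmin, was at 15.3 CPM in C1, 18.8 in C2, 13.5 in T1 and 12.2 in T2. Both anti-CD93 libraries were lower. For Des the log2 fold change was -0.40 (SE 0.25, 95% interval -0.97 to 0.16, adjusted p = 0.812 by edgeR), and -0.25 without C2.

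Tagln, which encodes the actin-binding protein transgelin, had the fewest reads of the members, 7 in C1, 22 in C2, 24 in T1 and 12 in T2. These corresponded to 0.571 CPM in C1, 2.36 in C2, 1.36 in T1 and 0.872 in T2. The highest and the lowest value were both in control libraries. The log2 fold change of -0.35 (SE 0.79, 95% interval -2.17 to 1.47, adjusted p = 0.926 by edgeR) was 0.97 without C2 and -1.06 without C1, so no direction could be read at this depth. Per kilobase of unshared exon, Tagln was at 0.0412 and 0.120 of the level of Acta2 in C1 and C2 and at 0.10 and 0.0631 in T1 and T2. Per kilobase of all exons the ratio was 0.0132 in C1, 0.0386 in C2, 0.0323 in T1 and 0.0203 in T2. The step between the scales is fixed by the lengths, 639 unshared of 1988 exonic bases. Tagln was below Acta2 on both scales. Reads that cross into a shared stretch are left out as well, so its level may still be too low.

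**Figure D3:**
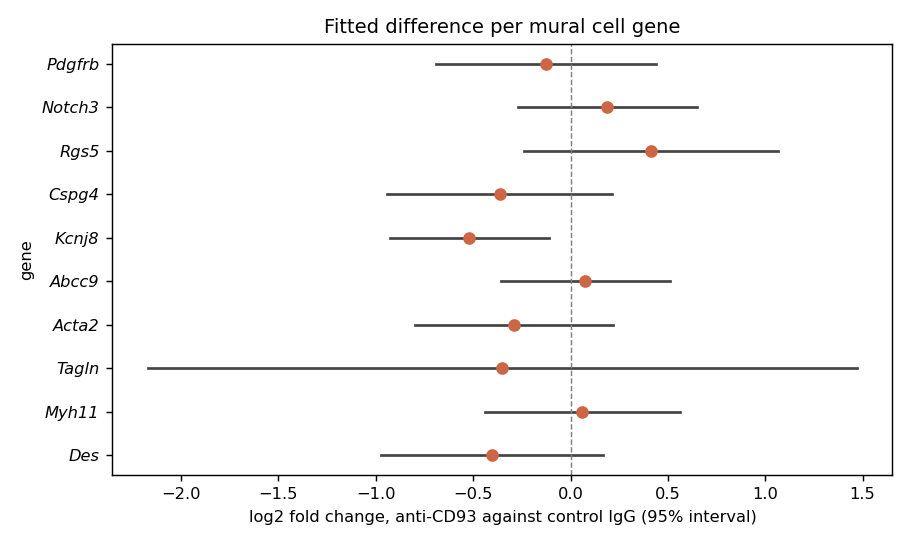
Log2 fold change of each mural gene, anti-CD93 against control IgG, from the edgeR fit over all genes (points) with 95% intervals not adjusted for the number of genes (lines). The interval of Kcnj8, -0.93 to -0.11, excludes 0, those of the other 9 genes include it, and that of Tagln is the widest.

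**Figure D4:**
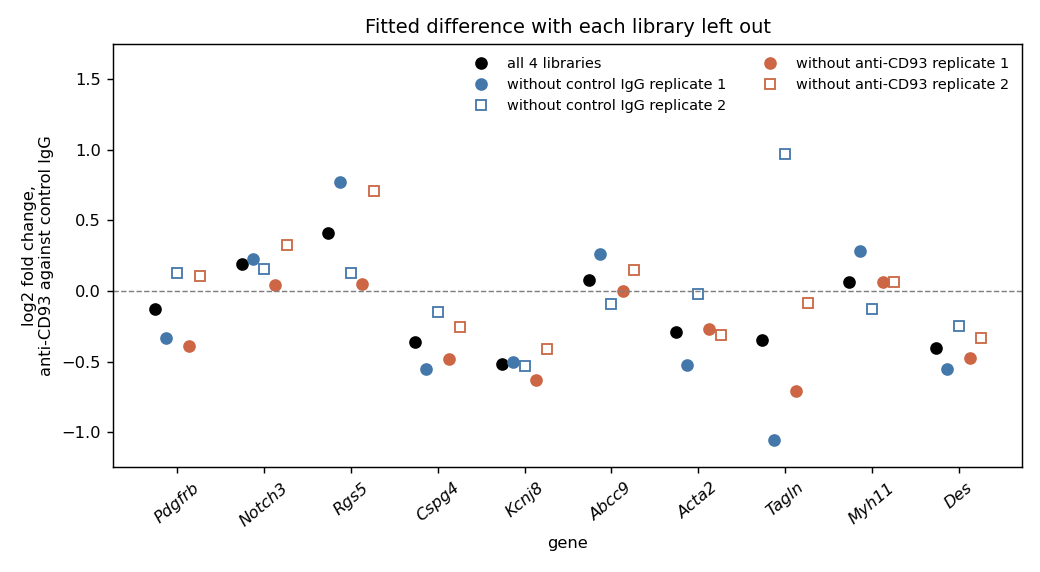
Log2 fold change of each mural gene with all 4 libraries (black) and with each library left out in turn. Kcnj8, Cspg4, Acta2 and Des stayed below 0 and Rgs5 and Notch3 above 0 in all 5 fits. In all of these but Rgs5 the groups did not overlap, so leaving out a single library could hardly turn the sign. Acta2 reached -0.022, Rgs5 0.053 and Notch3 0.041 in the weakest of the fits.

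Other genes of pericytes, from a list that does not contain the members, gave no call either. Of its 16 genes 15 were tested, 7 with values above 0 and 8 below, with a median log2 fold change of -0.18, 0 called and 1 at an unadjusted p under 0.05. That gene was Anpep, which encodes a membrane aminopeptidase of pericytes and other cells, at 12.3 CPM in C1, 21.6 in C2, 7.29 in T1 and 11.6 in T2. Its log2 fold change was -0.85 (SE 0.36, adjusted p = 0.812 by edgeR) and -0.40 without C2. Gjc1, a gap junction gene of mural cells, was at 20.5 CPM in C1, 13.1 in C2, 24.5 in T1 and 22.2 in T2, and Steap4, a metalloreductase gene, was at 12.6 CPM in C1, 12.8 in C2, 18.0 in T1 and 15.7 in T2. The Notch target Heyl was at 7.10 CPM in C1, 11.3 in C2, 6.27 in T1 and 6.25 in T2. Both anti-CD93 libraries were above both control libraries for Gjc1 and Steap4 and below them for Heyl, so these genes did not share a side. Of the 15 tested genes 2 lay above and 3 below in this way, beside 20.1% and 19.7% of all tested genes. Without C2 the list's median was -0.14 and 0 genes were called. Without C1 4 of the 15 were called, where 26.8% of all tested genes were. The list's level per kilobase summed to 300.2 in C1, 323.9 in C2, 285.9 in T1 and 268.6 in T2. Mcam alone held most of it, at 271.8 per kilobase of unshared exon in C1, 287.2 in C2, 253.7 in T1 and 240.5 in T2. Its mean of 263.3 was near the 276.2 of the endothelial marker Pecam1. The sum therefore follows Mcam and is not read as an amount of pericyte RNA. Whether the Mcam reads came from endothelial cells was not tested.

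Contractile genes outside the members likewise lay on both sides of 0. Of 20 genes 18 were tested, 7 above 0 and 11 below, with a median log2 fold change of -0.13, 0 called and 2 at an unadjusted p under 0.05, both below 0. Srf, which encodes serum response factor, the transcription factor of contractile genes, was at 51.7 CPM in C1, 82.3 in C2, 42.0 in T1 and 47.0 in T2. Its log2 fold change was -0.59 (SE 0.25, adjusted p = 0.812 by edgeR) and -0.22 without C2. Srf is read in most cell types. Mustn1, a small nuclear protein of muscle, was at 3.34 CPM in C1, 7.71 in C2, 1.92 in T1 and 2.25 in T2. Smtn, which encodes smoothelin, was at 227 CPM in C1, 329 in C2, 211 in T1 and 201 in T2. Synpo2, which encodes an actin-bundling protein, lay on the other side, at 9.87 CPM in C1, 10.6 in C2, 12.4 in T1 and 18.2 in T2. For Srf, Smtn and Mustn1 C2 held the highest of the 4 values, as it did for Acta2. Without it 9 genes of the list lay above 0 and 9 below, with a median of 0.010 and 0 called. Without C1 4 of the 18 were called, against the same 26.8% of all genes.

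The endothelial genes that signal to mural cells gave 0 calls among 15, all tested, with 7 values above 0, 8 below and a median log2 fold change of -0.026. None reached an unadjusted p under 0.05. Pdgfb, the ligand of Pdgfrb, was at 169 CPM in C1, 208 in C2, 181 in T1 and 164 in T2, with overlapping groups (log2 fold change -0.12, SE 0.18, adjusted p = 0.881 by edgeR, and 0.032 without C2). The Notch ligand Jag1 was at 145 CPM in C1, 122 in C2, 179 in T1 and 158 in T2 (log2 fold change 0.34, SE 0.18, adjusted p = 0.812 by edgeR, and 0.22 without C2). Dll4, another Notch ligand, was at 517 CPM in C1, 546 in C2, 422 in T1 and 459 in T2. The groups did not overlap in either ligand, with the anti-CD93 libraries above the controls for Jag1 and below them for Dll4. Of the 15 genes 2 lay above and 2 below in this way, beside 20.1% and 19.7% of all tested genes. Cdh2, which encodes the N-cadherin of endothelial and mural contacts, was at 10.1 CPM in C1, 9.85 in C2, 11.7 in T1 and 15.3 in T2. Without C2 the median of this list was 0.061 with 0 called. Without C1 6 of the 15 were called, against 26.8% of all genes in that fit.

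Markers of other cell types were read beside the members, since fibroblasts also express Pdgfrb and Acta2 and striated muscle expresses Des. All 12 fibroblast markers were tested, 4 with values above 0 and 8 below, with a median log2 fold change of -0.25, 0 called and 1 at an unadjusted p under 0.05. That gene was Pi16, which marks fibroblasts of the adventitia, at 5.38 CPM in C1, 5.57 in C2, 0.904 in T1 and 2.18 in T2. Pi16 had a log2 fold change of -1.84 (SE 0.51, unadjusted p = 0.00704 and adjusted p = 0.812 by edgeR), which ran from -2.59 to -1.32 with a library left out. The level of all 12 markers per kilobase summed to 271 in C1, 363 in C2, 229 in T1 and 279 in T2, more than the mural genes in every library. Most of this sum came from the collagen genes Col1a1, Col3a1 and Col1a2, at means of 152.3, 66.0 and 43.9 per kilobase. Pdgfra had a mean of 1.22, below the 12.4 of Pdgfrb. The sums therefore do not rank fibroblast against mural RNA. None of the 12 markers was at 0 in all libraries. Pdgfra, the receptor that marks fibroblasts, was at 11.6 CPM in C1, 11.7 in C2, 11.1 in T1 and 14.6 in T2. Col3a1, a fibrillar collagen gene, was at 617 CPM in C1, 896 in C2, 486 in T1 and 594 in T2. Without C2 the list's median was -0.040 with 0 called. Without C1 it was -0.42 with 6 of the 12 called, where 26.8% of all genes were. The part of fibroblast RNA in the values of Pdgfrb and Acta2 was not tested.

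Most skeletal muscle markers were near the floor, and Tnni2 was not. Of 12 muscle markers 2, Tnni2 and Mylpf, passed the count filter, with 0 called. The levels of all 12 per kilobase summed to 3.56 in C1, 8.38 in C2, 5.62 in T1 and 5.85 in T2. Myod1 had 0 reads in every library, which allows up to 0.169 to 0.321 CPM (3 reads, counting error only). Both mates were counted, so reads are not independent and this limit is too low. Acta1, the skeletal actin gene, had 4 reads in C1, 10 in C2, 0 in T1 and 2 in T2, against 168 to 239 reads of Des. Tnni2, a troponin gene of fast muscle, was at 3.26 CPM in C1, 6.21 in C2, 6.95 in T1 and 5.74 in T2. That was 2.18 to 4.64 per kilobase, beside 3.25 to 5.02 for Des per kilobase of all exons, so the level of Tnni2 was near that of Des. The groups overlapped in Tnni2, with a log2 fold change of 0.44 (SE 0.41, adjusted p = 0.830 by edgeR) and 0.96 without C2. The part of muscle RNA in the values of Des was not tested.

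Leukocyte and macrophage markers, 9 of 10 tested, summed to 19.3 per kilobase in C1, 34.1 in C2, 34.2 in T1 and 32.2 in T2. Their median log2 fold change was 0.11, with 6 of 9 above 0, 0 called and 1 (C1qa) at an unadjusted p under 0.05, and 1.11 without C2, with 8 of 9 above 0. Among them Ptprc, which encodes CD45, was at 2.37 CPM in C1, 4.71 in C2, 5.08 in T1 and 2.32 in T2. Tumour epithelial markers, 10 of 10 tested, summed to 837 per kilobase in C1, 1277 in C2, 1178 in T1 and 973 in T2, above the sum of the mural genes in each library. Their median log2 fold change was 0.098, with 6 above 0, 4 below and 0 called, and 0.39 without C2, with 8 above 0. At an unadjusted p under 0.05 there were 3, against 4.49% of all tested genes. These were Muc1, Epcam and Cdh1. Over the whole list both anti-CD93 libraries were above both control libraries in 3 of 10 genes and below both in 0. Of all tested genes 20.1% lay above and 19.7% below in this way. Muc1, an epithelial mucin gene, was at 35.2 CPM in C1, 48.1 in C2, 78.5 in T1 and 72.0 in T2. The log2 fold change of Muc1 was 0.86 (SE 0.21, unadjusted p = 0.00395 and adjusted p = 0.812 by edgeR). It was 1.10 without C2, where C1 was the sole control. Epcam, an epithelial adhesion gene, had a log2 fold change of 0.74 (SE 0.21), and Cdh1, which encodes E-cadherin, one of 0.59 (SE 0.18), both with adjusted p = 0.812 by edgeR. Most of the list's sum came from the keratin genes Krt8, Krt18 and Krt19, at means of 398.5, 340.9 and 192.3 per kilobase. Their log2 fold changes were 0.013, -0.12 and -0.031, so the sum does not follow Muc1, Epcam and Cdh1. Schwann cell markers, 4 of 6 tested, summed to 1.47 to 3.46 per kilobase, with a median log2 fold change of -0.049 (0.21 without C2) and 0 called, and Sox10 had 0 reads in all 4 libraries. Whether these cells contributed to the mural genes was not tested.

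By the mean pattern of the members, centred on the log2 scale, the libraries stood at -0.046 and 0.15 (C1 and C2) and at 0.085 and -0.19 (T1 and T2). Among 10232 other genes with a mean of at least 5 CPM, Man2a2, Adora2a and Wdr36 came closest to it, with a root mean square difference of 0.0205, 0.0210 and 0.0213 over the 4 libraries. As many as 714 genes lay within 0.1, so with 4 libraries this likeness singles out no gene.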

How the data were processed

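Total RNA of 4 libraries was prepared with a stranded kit for small inputs and sequenced as pairs of 150 bases, per the labels' protocols. Per the file headers, the authors deposited raw read counts from featureCounts 2.0.1 on GENCODE vM25 (GRCm38), grouped by gene name, with no paired-end or strand option, so each mate was counted. The submitters' processing notes name STAR 2.7.5b and DESeq2 1.28.1. A second deposited table of counts, named as normalized, differed in 0 of 221468 cells and was not used further. The exon length in bases is another column that the authors deposited.

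Genes were filtered with filterByExpr at a minimum count of 10, scaled by TMM and tested by quasi-likelihood in edgeR 4.0.16 (robust dispersion, R 4.3.3, group as the only term), with Benjamini-Hochberg adjustment over all genes tested. Shared exonic bases were computed from the exon coordinates of the deposited table. DESeq2 1.42.0 and limma-voom (limma 3.58.1) were alternatives. Members, gene lists and tests were chosen with earlier results of these data known. All members are named. Of each other list, genes were named from among the 4 with the smallest p, plus Pdgfb, Jag1, Pecam1, Cdh5, Pdgfra, Acta1, Ptprc and Actg2. Myod1 and Sox10, with 0 reads and no test, were named after their values were seen. So were Mcam, Col1a1, Col1a2, Krt8, Krt18 and Krt19, for their large part in the sum of a list. The script was tested on simulated data. Counts within each group differed by more than sampling noise, so each library counted as 1 replicate. Depth was 9364294 to 17813993 assigned reads, with 2 libraries in each group. For 9 members counting error alone would give a log2 SE of 0.019 to 0.10, against fitted SEs of 0.18 to 0.28, and for Tagln 0.40 against 0.79 (both mates were counted, so reads are not independent and the first values are too small).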

Additional observations from a re-analysis of the deposited data

How the results depend on the processing

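Directions of Kcnj8, Cspg4, Acta2, Des, Rgs5 and Notch3 were the same in all 14 alternatives. For all of these but Rgs5 the groups did not overlap, so leaving out a library could hardly turn the sign. Over all members, 132 of 138 values kept their sign and 6 turned: without C2 Pdgfrb was 0.12, Tagln 0.97, Myh11 -0.13 and Abcc9 -0.091; without T2 Pdgfrb was 0.10; and with limma-voom Tagln was 0.043. With single libraries left out, Pdgfrb ran from -0.39 to 0.12, Tagln from -1.06 to 0.97, Myh11 from -0.13 to 0.28 and Abcc9 from -0.091 to 0.26. The cause was not tested. Tagln was not among the genes tested at a minimum count of 50 or with halved counts. The number of members called was 0 in every alternative, including an adjusted p under 0.1, other than without C1, where 2 (Acta2 and Kcnj8) were called. With a library left out in turn it ran from 0 to 2. The members' median log2 fold change ran from -0.42 (without C1) to -0.012 (without T2) in those fits. Over all genes, 0 were called; 48 were with no count filter, 5 with DESeq2 and, with a library left out, 0 (without T1) to 4549 (without C1), with 13 without C2. With the replicate number as a block 14 genes were called and 0 members. Deviations of same-numbered libraries correlated at -0.016 across genes, so the numbers are not taken as pairs.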
